A study of Mus musculus with 4 samples.

Results

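The Hox genes of brown adipose tissue were described in mice with and without Tsku, the gene for the secreted proteoglycan tsukushi. Members were chosen by symbol from the array's platform annotation, as probe sets with 1 symbol made of Hoxa, Hoxb, Hoxc or Hoxd and a digit, leaving out symbols that end in os or Rik, with the brightest probe set kept for each gene. The rule found 37 genes of the 22180 measured in all. Of these 36 are the protein-coding Hox genes described here, and the remaining symbol, Hoxd3os1, belongs to a noncoding antisense gene and is given apart. Hoxa11 and Hoxd4 had only probe sets shared with another symbol and so have no value of their own.

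Total RNA came from brown fat of male C57BL/6 mice aged 4 months and fed chow, with 2 wild-type (WT) samples and 2 Tsku knockout (KO) samples, each on 1 whole-transcript array. The labels call the tissue BAT and name no anatomical depot, and they do not say how or in which cells Tsku was deleted. They call the samples biological replicates and say nothing more of their origin, so each p-value reflects the scatter among these 4 samples alone, and that scatter may be technical. With 0 probe sets listed for Tsku, its deletion could not be seen on the arrays, and the labels are the sole basis for the genotypes. The brown fat label was checked against 10 markers, of which 8 were above background on all 4 arrays, against 44.7% of all genes. Ucp1, the uncoupling protein of brown fat, was among the 8. It read 9.52 and 9.38 in wild type and 9.99 or more on both knockout arrays. The remaining markers, Elovl3 and Lhx8, exceeded the background on 2 and 3 arrays.

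Hox genes encode transcription factors that bind DNA through a homeodomain and give cells their position along the body axis. In mammals they lie in 4 clusters, A to D, and genes at the same place in different clusters are paralogs with the same group number. Genes of low group number are used from the hindbrain backwards, those of the middle groups at the level of the neck and chest, and those of high group number in the lumbar, sacral and tail regions and in the limbs and genital tract. Adult fat depots keep Hox patterns that differ between body regions, and brown fat between the shoulder blades forms from cells of the trunk mesoderm.

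Values are the authors' log2 expression values, on which a difference of 1 is a doubling of the signal unless the values were rescaled. Background was set by 1105 olfactory receptor (Olfr) genes, which brown fat is not known to use. It was taken on each array as the value below which 95% of them lay. That value was 0.63 and 0.77 in wild type against 0.81 and 0.71 in the knockout. A gene was called above background where it exceeded it on all 4 arrays, as 9920 of the 22180 genes (44.7%) and 5 of the 1105 receptor genes (0.452%) did. Array medians ran from 0.56 to 0.58 over all 41345 probe sets and from 0.77 to 0.82 over the 22180 genes. On a given array 50.1% to 53.8% of genes exceeded the background. Probe sets differ in how strongly they bind, so the level of 1 gene cannot be set against that of another. Each pair of values gives replicate 1 and then replicate 2, and having 2 arrays a genotype limits the precision.

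Of the 36 Hox genes, 10 were above background on all 4 arrays, against 44.7% of all genes. They were Hoxa4, Hoxa5, Hoxa6, Hoxa7, Hoxb4, Hoxb5, Hoxb6, Hoxc4, Hoxc6 and Hoxc8. A further 8 exceeded it on some arrays and 18 on none. By cluster the count was 4 of 9 genes in A, 3 of 10 in B, 3 of 9 in C and 0 of 8 in D. By paralog group it was 0 of 7 genes in groups 1 to 3, 10 of 14 in groups 4 to 8 and 0 of 15 in groups 9 to 13, a division made after the values were seen. All 3 measured genes of group 4 and all 3 of group 6 were above background, with 2 of 3 in group 5, 1 of 2 in group 7 and 1 of 3 in group 8. The members above background thus lay in the middle paralog groups of clusters A, B and C.

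**Figure D1:**
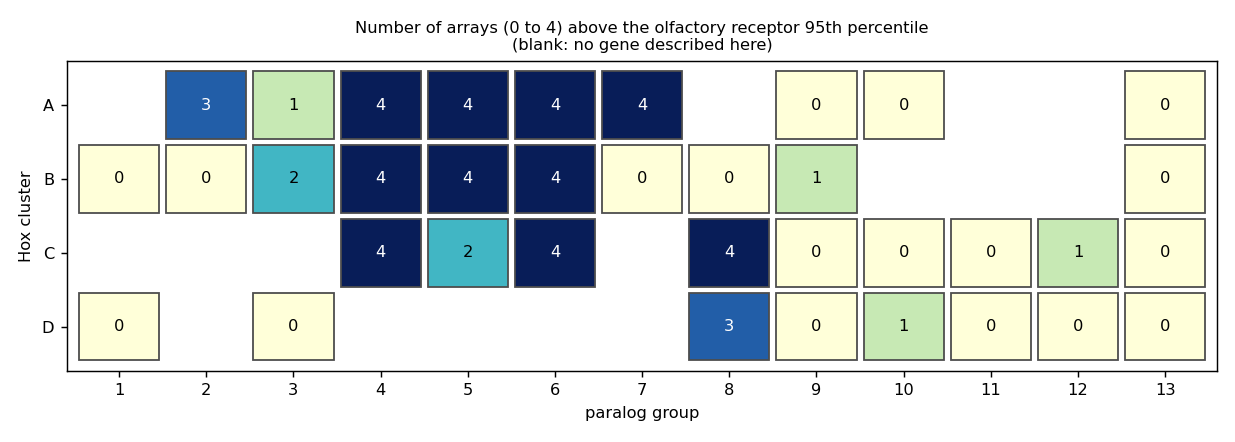
Grid of Hox clusters A to D (rows) by paralog group 1 to 13 (columns), where each cell gives the number of arrays, 0 to 4, on which the gene exceeded the olfactory receptor 95th percentile. The 10 cells with a 4 lie in groups 4 to 8 of clusters A, B and C, and a blank place has no gene described here.

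In cluster A the measured genes above background were neighbours, from Hoxa4 to Hoxa7, and the next measured gene, Hoxa9, exceeded it on no array. The start regions of Hoxa5, Hoxa6, Hoxa7 and Hoxa9 are shown because they span this change along the cluster. Each is the 250 bases before the gene's start in RefSeq (GRCm38.p6), 5′ to 3′ on the minus strand, with each CG dinucleotide in capitals. The coordinates are chr6:52204588-52204837 for Hoxa5, chr6:52208673-52208922 for Hoxa6, chr6:52218574-52218823 for Hoxa7 and chr6:52227371-52227620 for Hoxa9.
Hoxa5: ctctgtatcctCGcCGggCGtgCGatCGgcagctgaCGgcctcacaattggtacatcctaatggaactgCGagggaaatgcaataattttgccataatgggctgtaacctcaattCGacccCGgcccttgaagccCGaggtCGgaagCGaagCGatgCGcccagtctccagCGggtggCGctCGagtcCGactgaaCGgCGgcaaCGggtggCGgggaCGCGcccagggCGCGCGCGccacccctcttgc
Hoxa6: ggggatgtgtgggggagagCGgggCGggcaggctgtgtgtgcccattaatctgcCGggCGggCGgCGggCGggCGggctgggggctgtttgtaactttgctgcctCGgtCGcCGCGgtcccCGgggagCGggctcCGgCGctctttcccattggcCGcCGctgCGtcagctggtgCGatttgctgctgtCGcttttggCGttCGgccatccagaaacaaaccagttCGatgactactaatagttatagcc
Hoxa7: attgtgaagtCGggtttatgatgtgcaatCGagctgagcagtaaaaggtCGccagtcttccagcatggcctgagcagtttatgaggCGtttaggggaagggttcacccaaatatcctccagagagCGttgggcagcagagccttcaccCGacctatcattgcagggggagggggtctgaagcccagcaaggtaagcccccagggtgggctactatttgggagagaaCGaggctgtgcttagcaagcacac
Hoxa9: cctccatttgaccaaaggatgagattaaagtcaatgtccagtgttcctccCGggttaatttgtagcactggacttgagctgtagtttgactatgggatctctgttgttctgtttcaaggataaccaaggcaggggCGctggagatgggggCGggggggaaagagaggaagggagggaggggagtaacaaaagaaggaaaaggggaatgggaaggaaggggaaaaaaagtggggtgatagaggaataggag
The Hoxa5 stretch holds 28 CG dinucleotides, the Hoxa6 stretch 24, the Hoxa7 stretch 7 and the Hoxa9 stretch 3. CG-rich start regions are a general feature of Hox genes and are bound by Polycomb complexes where the genes are silent. The table held start regions for 20 of the 36 Hox genes, 22 in all. The 5 of them that belong to genes above background had a median of 14 CG (range 7 to 28), the other 17 a median of 12 (2 to 35), and all 32851 start regions a median of 6. So the CG counts of both kinds of Hox gene overlapped, and Hoxa13, on no array above background, had the most, 35. The motif TGATNNAT, which Hox proteins bind with their partner Pbx, was searched on both strands. It occurs in 0 of the 5 start regions of genes above background, in 4 of the 17 others (Hoxa2, Hoxb1, Hoxb8 and 1 of those of Hoxd11) and in 7.68% of all start regions. Of the other motifs searched, TAATTA occurs in 0 of the 5 start regions, 2 of the 17 and 4.84% of all. TATAAA occurs in 0 of the 5, 3 of the 17 and 12.4% of all. A match describes the letters only.

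Hoxa5, needed for the neck-to-chest skeleton and the lung and known as a regulator of adipocyte lipid handling, read 4.55 and 4.09 in wild type against 4.68 and 4.29 in the knockout. It stood far over the background on every array, and the genotypes overlapped. Hoxa4, which patterns the neck vertebrae, read 3.89 and 3.31 in wild type against 3.47 and 2.45 in the knockout. Its lowest array was knockout replicate 2, and the other knockout array lay between the wild-type arrays. Hoxa7, a gene of the chest region, read 2.26 and 1.81 in wild type against 1.53 and 1.59 in the knockout, with both knockout arrays under both wild-type arrays. Hoxa6, its neighbour, was the member nearest the background, at 1.07 and 0.83 in wild type against 1.04 and 1.17 in the knockout. On wild-type replicate 2 it exceeded the background by 0.05.

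The genes on the low-numbered side of that run were seen on some arrays only. Hoxa2, which specifies the second pharyngeal arch and parts of the hindbrain, read 1.35 and 0.53 in wild type against 1.82 and 1.97 in the knockout. It missed the background on wild-type replicate 2 alone, by 0.24. Hoxa3, required for thymus and parathyroid, read 1.03 and 0.51 in wild type against 0.53 and 0.35 in the knockout, above background on wild-type replicate 1 only. On the high-numbered side Hoxa9, known from blood stem cells and leukaemia, read 0.57 and 0.32 in wild type against 0.05 and -0.05 in the knockout. Hoxa10 and Hoxa13 were likewise on no array above background.

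Cluster B had 3 genes above background, all within groups 4 to 6. Hoxb4, known for expanding blood stem cells, read 1.27 and 1.36 in wild type against 1.06 and 1.04 in the knockout. Both knockout arrays were lower, and the spread within each genotype was small (SD 0.07 and 0.01). Hoxb5, active in neural crest and the shoulder region, read 1.42 and 1.38 in wild type against 1.44 and 1.82 in the knockout, the reverse order, though knockout replicate 1 exceeded wild-type replicate 1 by little. Hoxb6, a gene of the forelimb level of the trunk, read 0.97 and 1.38 in wild type against 1.10 and 0.99 in the knockout, and the genotypes overlapped. Hoxb3, a hindbrain and neck gene, exceeded the background on replicate 1 of wild type (0.93) and replicate 2 of the knockout (0.83) but not on the others (0.31 and 0.30). Hoxb9, which patterns the ribs, read 0.13 and 0.15 in wild type against 0.55 and 1.03 in the knockout and was above background on knockout replicate 2 only. Hoxb1, Hoxb2, Hoxb7, Hoxb8 and Hoxb13 exceeded it on no array.

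Cluster C held 3 genes well over background. Hoxc6, a marker of the upper chest, read 3.22 and 3.70 in wild type against 3.03 and 2.94 in the knockout. Hoxc8, a chest-level gene known to restrain brown adipocyte formation in white fat progenitors, read 3.41 and 3.07 in wild type against 3.08 and 2.92 in the knockout. Hoxc4, the first gene of the cluster, read 3.35 and 2.70 in wild type against 2.46 and 2.99 in the knockout. Of these 3, Hoxc6 was the gene whose genotypes did not overlap. Hoxc5, between Hoxc4 and Hoxc6, was below background on both wild-type arrays (0.26 and 0.53) and above it on knockout replicate 1 (1.69) and replicate 2 (0.80). Hoxc12, a gene of the tail end known from hair follicles, read 0.64 and 0.24 in wild type against 0.50 and 0.65 in the knockout, and wild-type replicate 1 just exceeded that array's background. Hoxc9 and Hoxc10, both known from subcutaneous white fat, were on no array above background. Hoxc9 read -0.03 and 0.21 in wild type against 0.57 and 0.11 in the knockout, and Hoxc10 read 0.56 and 0.28 in wild type against 0.41 and 0.27 in the knockout.

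Cluster D, best known for shaping limbs and genitalia, had no gene above background on all 4 arrays. Hoxd8 came closest, at 1.14 and 1.24 in wild type against 0.56 and 1.43 in the knockout. It fell short on knockout replicate 1 alone, by 0.25. Hoxd10, a limb and lumbar motor neuron gene, read 0.35 and 0.75 in wild type against 0.39 and 1.02 in the knockout, above background on knockout replicate 2 only. The other 6 cluster D genes exceeded it on no array. Over all clusters, the 18 genes on no array above background ranged from -0.29 to 0.69.

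**Figure D2:**
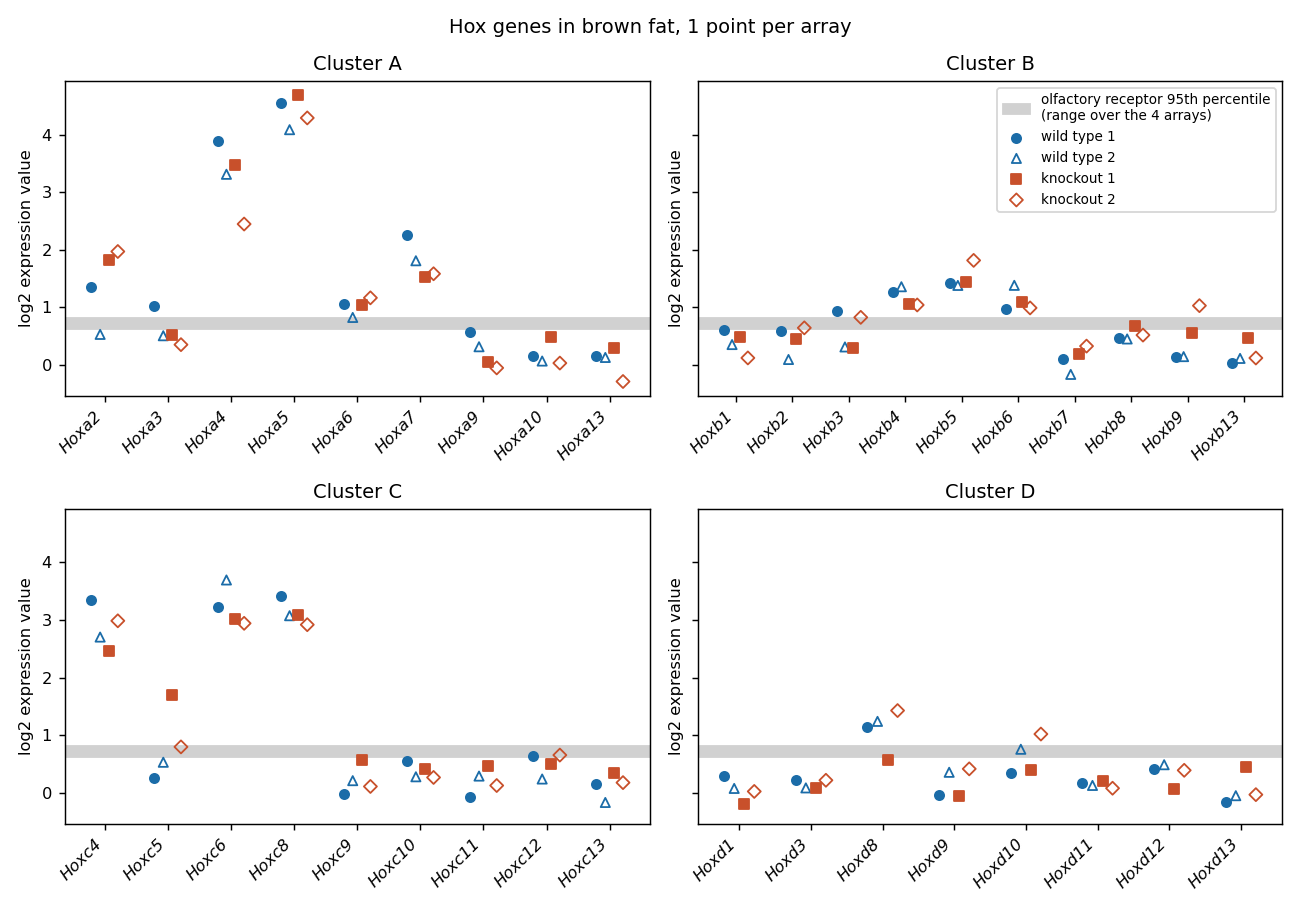
Log2 expression value (y axis) of each measured Hox gene (x axis, in paralog order) in clusters A to D, with 1 point per array, wild type in blue and knockout in red, and a grey band for the range of the olfactory receptor 95th percentile over the 4 arrays. The points of Hoxa5 lie at 4.09 to 4.68, all well over the band, while those of the 18 genes on no array above background lie between -0.29 and 0.69.

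The edge of this set moved with the definition of background. Just inside stood Hoxa6, Hoxb4 and Hoxb6, whose smallest margins were 0.05, 0.25 and 0.28, and just outside stood Hoxa2 and Hoxd8, at -0.24 and -0.25. With the 99th percentile of the receptors in place of the 95th, 7 genes stayed and Hoxa6, Hoxb4 and Hoxb6 dropped out. Above the highest receptor value of each array, 2.13 to 3.28, stood 4 genes: Hoxa4, Hoxa5, Hoxc4 and Hoxc8. A gene had to pass on every array, and 18 passed on at least 1.

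Some probe sets may read more than their own gene. By the spans in the reference gene table, 17 of the 36 Hox genes overlap another gene, 7 of the 10 above background among them. The span of Hoxa3 covers Hoxa4, Hoxa5 and Hoxa6, that of Hoxb3 covers Hoxb4, and the antisense genes Hoxaas3 and Hoxb5os overlap Hoxa5 with Hoxa6 and Hoxb5 with Hoxb6. Hoxa3 itself was above background on 1 array, against 4 for each of Hoxa4, Hoxa5 and Hoxa6. Hoxaas3, which also overlaps Hoxa3, was above it on 2. Hoxa7, Hoxc6 and Hoxc8 overlapped no gene in the table. The platform annotation nonetheless lists a probe set as shared by Mira and Hoxa7, which was above background on all 4 arrays.

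The noncoding genes of the clusters were mostly not seen. Of 20 listed, 7 were measured and 0 were above background on all 4 arrays, against 44.7% of all genes. Hoxaas3, an antisense RNA of the A cluster, read 0.74 and 1.41 in wild type, above background, and 0.33 and 0.23 in the knockout, below it. That made it at least 1.24-fold higher in wild type (log2 difference -0.80, 95% interval -1.45 to -0.15, limma unadjusted p = 0.024, adjusted p = 0.872). The bound takes the mean background as the knockout level. Hoxd3os1 read 0.03 and 0.17 in wild type against 0.44 and 0.47 in the knockout, below background on all 4 arrays. Hotair, the long noncoding RNA of cluster C, also exceeded it on no array.

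Among the microRNA genes of the clusters, Mir196a-1 and Mir196a-2 were above background on some arrays, and Mir10b and Mir615 on none. Mir196a-1 read 0.49 and 1.34 in wild type against 0.68 and 0.90 in the knockout. Mir196a-2 read 0.69 and 0.07 in wild type against 0.46 and 0.81 in the knockout. Both make the same mature microRNA, which is known to target Hoxc8 in fat progenitors, and a probe set cannot tell the mature form from its precursor or host transcript. The sequences below are RefSeq's, 5′ to 3′, with the seed, bases 2 to 8, in capitals. They are shown because their genes lie within the clusters and were measured, and their seeds differ.
mmu-miR-196a-5p: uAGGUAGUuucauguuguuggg
mmu-miR-10b-5p: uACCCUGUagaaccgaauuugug

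Knockout was compared with wild type to ask what the loss of Tsku does to Hox expression. No Hox gene passed the test: with limma and Benjamini-Hochberg adjustment over 22180 genes, 0 had an adjusted p under 0.05 (0% of all genes), and the smallest adjusted p of a Hox gene was 0.872. An unadjusted p under 0.05 was reached by 3 of 36 Hox genes, against 5.56% of all genes (1234). All 3, Hoxa2, Hoxb9 and Hoxc5, were higher in the knockout, against 2.89% of all genes, and 0 were lower, against 2.67%. None of the 3 was among the 10 above background on all arrays. This split did not hold when an array was left out. It was then 1 higher and 1 lower without wild-type replicate 1, knockout replicate 1 or knockout replicate 2, and 1 higher and 2 lower without wild-type replicate 2. With replicate number as a block it was 3 higher and 1 lower, the latter being Hoxa4 (limma unadjusted p = 0.0328).

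The 3 genes differed by more than their spread at the unadjusted level only. Hoxa2 differed by 0.96 (SE 0.30, 95% interval 0.22 to 1.69, limma unadjusted p = 0.0189, adjusted p = 0.872), with a wild-type mean of 0.94 ± 0.58 (SD, n = 2) and a knockout mean of 1.90 ± 0.11 (SD, n = 2). Its wild-type spread was the gap between the arrays at 1.35 and 0.53. Without wild-type replicate 1 the difference was 1.36, and without wild-type replicate 2 it was 0.55 (limma unadjusted p = 0.0845). Hoxb9 differed by 0.65 (SE 0.23, 95% interval 0.10 to 1.21, limma unadjusted p = 0.0284, adjusted p = 0.872). Its difference was 0.89 with knockout replicate 1 left out and 0.41 with knockout replicate 2 left out (limma unadjusted p = 0.108). Hoxc5 differed by 0.85 (SE 0.32, 95% interval 0.05 to 1.64, limma unadjusted p = 0.04, adjusted p = 0.872). Its wild-type arrays were below background, so its knockout level was at least 1.46-fold higher. With knockout replicate 2 left out the Hoxc5 difference was 1.29, and with knockout replicate 1 left out it was 0.40 (limma unadjusted p = 0.166).

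Of the 10 genes above background, 7 had lower and 3 had higher values in the knockout, against 48.9% lower among the 9920 genes above background. Their median difference was -0.25, against 0.01 over those 9920 genes, and no test was made of it. That median was -0.16 with wild-type replicate 1 left out and -0.14 with knockout replicate 2 left out. In 4 of the 10 the genotypes did not overlap, against 36.5% of genes above background. These were Hoxa7, Hoxb4 and Hoxc6, lower in the knockout, against 17.6% of genes above background in that direction, and Hoxb5, higher. The sizes were -0.48 for Hoxa7 (95% interval -1.02 to 0.07), -0.26 for Hoxb4 (-0.70 to 0.18), -0.47 for Hoxc6 (-1.03 to 0.08) and 0.23 for Hoxb5 (-0.28 to 0.74). Each interval includes 0. Leaving out wild-type replicate 1 gave -0.25 for Hoxa7 and -0.71 for Hoxc6, and leaving out wild-type replicate 2 gave -0.71 for Hoxa7 and -0.235 for Hoxc6. Hoxb5 differed by 0.42 with knockout replicate 1 left out and by 0.043 with knockout replicate 2 left out, while Hoxb4 ran from -0.31 to -0.21 over the arrays left out.

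For the other 6 the genotypes overlapped. Hoxa4 had the widest gap, -0.64 (95% interval -1.58 to 0.30, limma adjusted p = 0.888). With knockout replicate 2 left out the Hoxa4 difference was -0.13, and with knockout replicate 1 left out it was -1.15. Hoxc4 differed by -0.30, Hoxc8 by -0.24 (95% interval -0.75 to 0.27) and Hoxb6 by -0.13. Hoxa5 differed by 0.17 (95% interval -0.44 to 0.78, limma adjusted p = 0.934) and Hoxa6 by 0.16, which with Hoxb5 made the 3 with higher knockout values. All 3 genes of group 4 were lower and all 3 of group 5 higher in the knockout, and the genes of group 6 went both ways. The direction of Hoxa5, Hoxb6 and Hoxc4 turned when single arrays were left out.

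**Figure D3:**
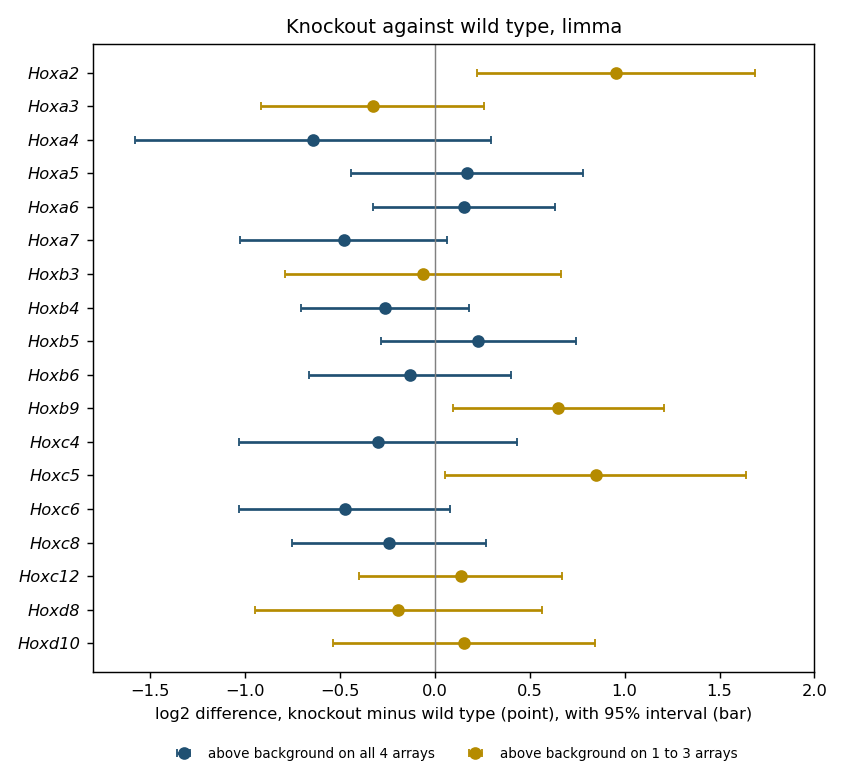
Log2 difference, knockout minus wild type (x axis, points), with its 95% interval (bars) for the 18 Hox genes above background on at least 1 array (y axis), coloured by whether all 4 arrays were above it. The intervals of Hoxa2, Hoxb9 and Hoxc5 lie above 0, and those of the 10 genes above background on all arrays include 0.

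Over all 36 Hox genes 19 had higher and 17 lower values in the knockout, and their median difference was 0.01, against 0.02 for all genes. The genotypes did not overlap for 15 of them, 9 higher and 6 lower, against 35.2% of all genes (19.4% higher, 15.8% lower). Among the other 5 genes above background on some arrays, Hoxa3 differed by -0.33, Hoxd8 by -0.19, Hoxb3 by -0.06, Hoxc12 by 0.14 and Hoxd10 by 0.15. Among genes on no array above background, Hoxa9 had the smallest p, with a difference of -0.44 (limma unadjusted p = 0.0645, adjusted p = 0.872) and no fold, since both genotypes were below background. The half-width of a Hox gene's 95% interval ran from 0.44 to 0.94, and its median over all genes was 0.52. These intervals are unadjusted and set no limit of detection. Larger differences also missed the adjusted threshold, such as that of Hoxa2, 0.96 (limma adjusted p = 0.872).

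Brown fat is a mixture of cells, and in such bulk RNA fewer cells of a type and less RNA per cell cannot be told apart. For the marker counts below, 44.7% of all genes were above background on all 4 arrays. An unadjusted p under 0.05 was reached by 5.56% of all genes, 2.89% higher and 2.67% lower in the knockout. Fibroblast and adipose progenitor markers, all 8 measured above background, were lower in 7 of 8 cases with a median difference of -0.21. Their summed linear level was 639.8 and 613.3 in wild type against 527.9 and 575.5 in the knockout. Skeletal muscle markers were lower in 12 of 12 cases, 10 of them at an unadjusted p under 0.05, with a median of -1.87 and summed levels of 268.5 and 422 in wild type against 166.8 and 58.98 in the knockout. Of those 12, Myh1, Myh2 and Myot exceeded the background on some arrays only. Macrophage markers were lower in 10 of 10 cases, with a median of -0.53 and summed levels of 257.1 and 267.5 in wild type against 142.8 and 268.3 in the knockout. Brown adipocyte markers were higher in 9 of 10 cases, 4 of them at an unadjusted p under 0.05 (Dio2, Otop1, Prdm16 and Ucp1), with a median of 0.41 and summed levels of 1729 and 1563 in wild type against 2108 and 2142 in the knockout. Adipocyte markers were higher in 8 of 9 cases (median 0.25) and endothelial markers in 5 of 10 (median -0.03). Smooth muscle and pericyte markers were lower in 7 of 10 cases (median -0.14), with Tagln lower and Cspg4 and Notch3 higher at an unadjusted p under 0.05. Schwann cell and nerve markers were higher in 4 of 6 cases (median 0.095), and both measured blood cell markers were higher (median 0.17). No marker passed an adjusted p of 0.05, and the part of these cell types in the Hox differences was not tested.

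Hox proteins act with partners of the TALE homeodomain class, the Pbx, Meis and Pknox factors, which sharpen their choice of DNA sites. Of 10 measured, 5 were above background on all arrays (Pbx3, Meis1, Meis2, Pknox1 and Tgif1). For this list and those that follow, the shares over all genes were 44.7% above background and 5.56% at an unadjusted p under 0.05. Pbx2 read 1.17 and 1.31 in wild type against 0.29 and 0.32 in the knockout, below background in the latter. It was at least 1.39-fold higher in wild type (log2 difference -0.94, limma unadjusted p = 0.00223, adjusted p = 0.872). Meis1, a Hox partner in blood and limb, read 2.38 and 2.69 in wild type against 2.10 and 2.03 in the knockout (difference -0.46, limma unadjusted p = 0.0603), with no overlap. Meis3 differed by -0.46 and Pbx3 by 0.38, in opposite directions. Of the 10, 6 were higher and 4 lower, with 1 at an unadjusted p under 0.05 and a median of 0.14.

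Among homeobox genes related to the Hox genes, 2 of 13 were above background on all arrays. These were Meox1 and Meox2, factors of the somites that form trunk mesoderm. Meox1 read 3.13 and 2.51 in wild type against 2.27 and 2.51 in the knockout, and Meox2 read 5.67 and 5.39 in wild type against 5.15 and 5.49 in the knockout. The pancreatic and gut genes Pdx1, Cdx1 and Cdx4 exceeded the background on no array. Cdx2, also a gut gene, did so on knockout replicate 1 only, at 1.13. Of the 13, 8 were higher and 5 lower, with 0 at an unadjusted p under 0.05 and a median of 0.06. On no array above background were 9 of them, and the median over Meox1 and Meox2 was -0.32.

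Of 36 other measured transcription factors that mark position, 7 were above background on all arrays: Tbx15, Tbx5, Prrx1, Irx3, Twist1, Nr2f2 and Zic1. Tbx15, a gene of brown and some white depots, read 1.60 and 1.13 in wild type against 1.37 and 2.51 in the knockout, and the gap came from knockout replicate 2. Zic1, used as a marker of classical brown fat, read 2.86 and 1.86 in wild type against 3.01 and 2.36 in the knockout. Pax3, a factor of the dermomyotome, read 0.23 and 0.68 in wild type, below background, against 0.96 and 1.01 in the knockout. It was at least 1.22-fold higher there (log2 difference 0.53, limma unadjusted p = 0.0531, adjusted p = 0.872). Emx1, a forebrain homeobox gene, differed by -0.29. The list had 26 higher and 10 lower members, 0 at an unadjusted p under 0.05 and a median of 0.09. Of its 36 genes, 18 exceeded the background on no array, and the median over the 7 above it on all arrays was 0.0.

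Polycomb complexes keep Hox genes silent outside their domains, and Trithorax proteins keep them active within. Of 28 measured Polycomb genes 24 were above background on all arrays, including Ezh2, Eed and Suz12, the core of the complex that methylates histone H3. Rybp, a subunit of the complex that ubiquitinates histone H2A, read 2.92 and 3.02 in wild type against 1.81 and 2.09 in the knockout. Its difference of -1.03 had a 95% interval of -1.51 to -0.54 (limma unadjusted p = 0.00211, adjusted p = 0.872). Pcgf1, its partner, differed by -0.54, Ring1 by -0.41 and Phc3 by -0.32. In all 17 were lower and 11 higher, with 1 at an unadjusted p under 0.05 and a median of -0.08. All 15 measured Trithorax genes and opposing demethylases were above background, 8 lower and 7 higher, with a median of -0.01. Wdr5, a subunit shared by the methyltransferases, read 3.12 and 3.05 in wild type against 2.31 and 2.71 in the knockout (difference -0.58, limma unadjusted p = 0.0356, adjusted p = 0.872), the only member at that level. Men1 differed by 0.26, Setd1a by -0.22 and Psip1 by -0.15.

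Retinoic acid switches on Hox genes of low group number in the embryo. Of 18 measured genes of its synthesis, receptors and breakdown, 10 were above background on all arrays, 13 were higher and 5 lower in the knockout, and the median was 0.20. The receptor gene Rxrg read 0.86 and 1.17 in wild type against 1.68 and 2.15 in the knockout (difference 0.90, limma unadjusted p = 0.00981, adjusted p = 0.872). Rarb, a receptor gene that retinoic acid induces, read 2.88 and 2.80 in wild type against 2.40 and 2.38 in the knockout (difference -0.45, limma unadjusted p = 0.0464). These were the 2 members at an unadjusted p under 0.05, in opposite directions. Dhrs3, a retinaldehyde reductase, differed by 0.42. Aldh1a3, a retinaldehyde dehydrogenase, differed by 0.35 (limma unadjusted p = 0.119, adjusted p = 0.886). Its wild-type arrays were below background, so the fold between its means is a bound, at least 1.10-fold higher in the knockout. The enzymes that break down retinoic acid, Cyp26a1, Cyp26b1 and Cyp26c1, exceeded the background on no array.

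**Figure D4:**
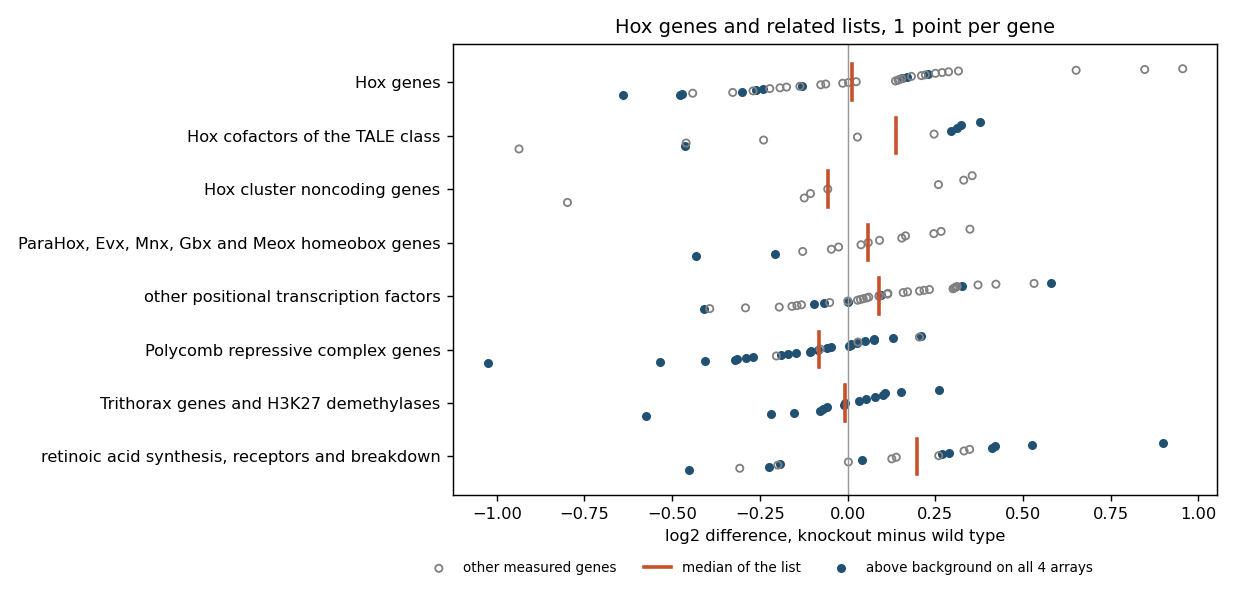
Log2 difference, knockout minus wild type (x axis), of every measured gene in the Hox genes and 7 related lists (rows), filled where all 4 arrays were above background, with a red bar at each list's median. The list medians lie between -0.08 and 0.20, and the filled Hox points lie mostly to the left of 0.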

How the data were processed

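Brown fat RNA from 4 samples (2 wild type, 2 Tsku knockout) was hybridised to whole-transcript arrays, 1 per sample. The deposited values are log2 expression values of 41345 probe sets, and RMA, oligo and limma are named without roles or versions per the submitters' processing notes. The genome build is not given in the sources used here. The base 2 is taken from RMA, and the values (lowest -1.12, highest 11.78) carry an offset or scaling of unstated origin. An offset cancels in differences, whereas a scaling would change them. RMA pulls dim probe sets together, so differences of dim genes are understated.

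Probe sets with 1 annotated symbol (23521) were kept. Those with several (1814) or none listed (16010) were left out of the comparison, and 23328 matched the gene table (GRCm38.p6) by Entrez ID, with 0 symbols differing. The probe set with the highest mean gave each gene's value, for 22180 genes.

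Knockout was compared with wild type with lmFit and eBayes in limma 3.58.1 (R 4.3.3), two-sided, without a block or filter, with Benjamini-Hochberg adjustment over all genes and a threshold of 0.05 (residual degrees of freedom 2, prior 3.96). The script was tested on simulated data. Where both arrays of a genotype lay below background, a fold is a bound: the brighter genotype's mean over the dim genotype's mean, after raising each dim value under background to background. Background percentiles are given in the text, and array totals have no meaning on this scale.

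Every Hox gene above background on any array or with an unadjusted p under 0.05 was given by array, with Hoxa9, Hoxc9 and Hoxc10 added after their values were seen. From each other list up to 4 members were named, those with the smallest p among genes above background on both arrays of a genotype, and genes at or off background were also named after their values were seen. Hoxd3os1 meets the letter of the membership rule and was set apart as noncoding. The members and all lists were chosen with earlier results of these data known. Alternatives covered the background, the replicate block, filtering, probe set choice, normalization, variance and leaving out each array.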

Additional observations from a re-analysis of the deposited data

Results flagged for a closer look

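Among probe sets left out because they carry several symbols, 2 that include a Hox gene gave a signal above the olfactory receptor background on all 4 arrays, in data that the comparisons did not use. The probe set shared by Hoxb3 and Hoxb2 had a mean of 1.32 and read 1.26 and 1.36 in wild type against 0.98 and 1.67 in the knockout, while the probe sets of Hoxb2 and of Hoxb3 alone were above background on 0 and 2 arrays. The probe set shared by Mira and Hoxa7 had a mean of 1.68 and read 1.42 and 2.29 in wild type against 2.07 and 0.94 in the knockout. Its arrays did not follow those of the Hoxa7 probe set, at 2.26 and 1.81 in wild type against 1.53 and 1.59 in the knockout. Which gene gives either signal was not tested.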

How the results depend on the processing

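The count of 10 Hox genes above background was 4 with the highest receptor value as background, 18 where passing on 1 array sufficed, and 7 to 11 under the other alternatives. Leaving out an array and using the median of all genes were added after the data were seen, and these added Hoxa2 without wild-type replicate 2 and Hoxd8 without knockout replicate 1. Genes past the adjusted threshold numbered 1 with the replicate block, 1 with median centring, 1 with a mean trend in the variance and 0 to 15 without single arrays. None of the 18 Hox genes named with differences passed under any alternative (smallest limma adjusted p 0.223, Hoxa2 without wild-type replicate 1). The count of Hox genes at an unadjusted p under 0.05 was 4 with the replicate block, 2 with the filter on dim genes and 2 to 3 otherwise, and the split of 3 higher and 0 lower was lost whichever array was left out. The median of the Hox genes above background ran from -0.23 to -0.14 without single arrays, and that of all Hox genes was -0.19 with the filter and -0.050 to 0.042 without single arrays. The latter median lay at -0.005 and -0.016 with repeated quantile normalization and cyclic loess. Of the 18 genes 11 kept their sign under every alternative run for them. The other 7 reversed without single arrays: Hoxa5 (-0.06 to 0.40), Hoxb3 (-0.37 to 0.25), Hoxb6 (-0.34 to 0.077), Hoxc4 (-0.62 to 0.022), Hoxc12 (-0.065 to 0.34), Hoxd8 (-0.62 to 0.24) and Hoxd10 (-0.16 to 0.47). The cause was not tested beyond the smaller number of arrays, where a lone array is assumed to vary like the other genotype's. Same-numbered arrays did not deviate together (r = -0.073 across 22180 genes), so the samples were taken to share only a number. Over all genes the arrays correlated at 0.9828 within wild type and 0.981 within the knockout. Across genotypes the correlations ran from 0.9769 to 0.9846, highest for wild-type replicate 1 with knockout replicate 2. Signal over background limits the 18 Hox genes on no array above it, for which no fold is given.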

Other observations

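The remaining shared probe sets with a Hox symbol gave lower values. The probe set shared by Hoxd4 and Hoxd3 read 0.42 and 0.51 in wild type against 1.09 and 0.90 in the knockout, above background on both knockout arrays only, with a difference of 0.53 that was not tested. It is the only probe set with the symbol Hoxd4. The probe set shared by Hoxa3 and 5730446D14Rik read 0.84 and 0.63 in wild type against 0.92 and 0.85 in the knockout, above background on 3 arrays. Those shared by Hoxa11 with Hoxa11os and by Hoxb4 with Mir10a exceeded it on no array. Hoxb5 had a second probe set, whose mean of 0.64 lay under the 1.52 of the set used, and it read 0.63 and 0.25 in wild type against 0.69 and 0.97 in the knockout, with its highest array, as in the set used, in knockout replicate 2.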
